A study of Mus musculus with 6 samples.

Results

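The LIM homeobox genes examined here are Lhx1, Lhx2, Lhx3, Lhx4, Lhx5, Lhx6, Lhx8, Lhx9, Isl1 and Isl2. They were chosen by name and by no rule on their values, but with earlier results of these data known. All 10 were measured, each by 1 probe set paired with no other gene, among 19938 genes in all. RNA was taken from W4 cells, 1 line of mouse embryonic stem cells, after 16 days of neural differentiation in culture. The treated group was exposed to 300 uM valproate (VPA), a drug against epilepsy that blocks histone deacetylases, a dose that the labels call sub-toxic. The control group was given only the solvent, phosphate-buffered saline (PBS). Both groups had 3 arrays, described as biological replicates, and nothing further says whether they were separate differentiations, so p-values measure the spread between these samples. The comparison asked how the genes differed when the drug was present while neurons formed.

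LIM homeobox genes encode transcription factors with a pair of LIM domains, which bind other proteins, and a homeodomain, which binds DNA. In the developing nervous system their combinations mark classes of neurons, and most come as pairs of closely related paralogues with overlapping roles. They act in complexes built on the LIM-binding proteins Ldb1 and Ldb2. The LIM-only (Lmo) proteins, which have LIM domains and no homeodomain, can compete for these partners.

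Values are log2 signals, so a difference of 1 is a doubling. Each change is the VPA mean less the PBS mean, with limma's moderated standard error (SE). A gene is said to have risen or fallen where limma's Benjamini-Hochberg adjusted p over all genes was under 0.05. VPA replicate 1 stood apart from its group. Its median absolute difference over all genes was 0.12 and 0.13 from the other VPA arrays, against 0.06 to 0.07 for the remaining pairs within a group. A background gauge was set at 6.15, the 95th percentile of the mean signals of 1027 olfactory receptor genes, which are mostly silent outside the nose. A mean below it was not told apart from background, and a difference from such a mean is given as measured, with its true size not defined. None of the 10 LIM homeobox genes lay below it in both groups, but Lhx3, Lhx8, Isl1 and Isl2 had PBS means only 0.12 to 0.36 above it.

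Markers of several cell types differed between the groups. Over all genes 13.6% rose and 15.7% fell, and no marker list was tested against these shares. All 6 pluripotent cell markers lay below the background gauge in both groups. Neuron markers were high, with a mean log2 signal of 11.21 to 11.27 on the PBS arrays and 10.90 to 10.97 on the VPA arrays, and 7 of 8 fell. Among them Tubb3 changed by -0.27 (SE 0.06), Map2 by -0.20 (SE 0.05) and Dcx by -0.37 (SE 0.06). The call of Map2 was lost without PBS replicate 1 (limma adjusted p = 0.0501), 2 (0.0935) or 3 (0.0716) or VPA replicate 2 (0.0613). That of Elavl3 was lost without PBS replicate 1 (limma adjusted p = 0.0581), 2 (0.0653) or 3 (0.057) or VPA replicate 2 (0.0542) or 3 (0.0503). Snap25 lost its call without PBS replicate 1 (limma adjusted p = 0.0564) or 2 (0.0588). Fibroblast and matrix markers had means of 8.07 to 8.36 with PBS and 10.01 to 10.09 with VPA, and 7 of 7 rose. Among 7 glial markers 3 fell (Gfap, Mbp and Olig1) and 1 rose (Sox10); the call of Gfap was lost without PBS replicate 1 (limma adjusted p = 0.0821), 2 (0.0646) or 3 (0.153) or VPA replicate 1 (0.0608) or 3 (0.0787). The part of these shifts in the changes of the LIM homeobox genes was not tested, and in bulk RNA fewer cells of a type and less RNA per cell cannot be told apart.

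Of the 10 LIM homeobox genes, 2 rose (Lhx4 and Lhx6), 5 fell (Lhx1, Lhx2, Lhx5, Lhx9 and Isl1) and 3 did not pass (Lhx3, Lhx8 and Isl2). Over all genes the share that passed was 29.2%, with 13.6% higher and 15.7% lower. The same counts, 2 and 5, held without VPA replicate 1. In that fit more of all genes passed, 3949 higher and 4224 lower, against 2702 and 3123 with all arrays. Lhx1 was the 1 gene of the 10 with a change of at least 2-fold, against 1.66% of all genes that passed with a change of that size. The median absolute change was 0.34 over the LIM homeobox genes and 0.12 over all genes. The groups did not overlap for 8 of the 10 (3 higher, 5 lower), against 44% of all genes (20.2% higher, 23.8% lower). Of all genes, 5728 lay below the background gauge in both groups, and none of the 10 did. Among the 14210 genes at or above it in a group, 2199 rose, 2968 fell and the median absolute change was 0.15. The groups did not overlap for 3122 higher and 4360 lower of these 14210 genes.

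The promoters of the genes that fell or rose most clearly are shown first, because Lhx1, Lhx2 and Lhx9 fell while Lhx4 rose. RefSeq sequences of build GRCm38.p6 were matched for 9 of the 10 genes, with 13 start sites; Lhx5 had no entry. The 250 bases before a start are given 5′ to 3′. Capitals mark matches, on either strand, to CCAAT (the CCAAT box) or GGGCGG (the GC box).
Lhx1, chr11:84525535-84525784, minus strand: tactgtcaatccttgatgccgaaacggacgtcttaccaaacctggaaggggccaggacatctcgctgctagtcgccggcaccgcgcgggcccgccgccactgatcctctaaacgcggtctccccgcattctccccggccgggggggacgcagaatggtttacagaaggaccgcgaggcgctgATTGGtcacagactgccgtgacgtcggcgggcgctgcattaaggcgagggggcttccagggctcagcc
Lhx2, chr2:38339031-38339280, plus strand: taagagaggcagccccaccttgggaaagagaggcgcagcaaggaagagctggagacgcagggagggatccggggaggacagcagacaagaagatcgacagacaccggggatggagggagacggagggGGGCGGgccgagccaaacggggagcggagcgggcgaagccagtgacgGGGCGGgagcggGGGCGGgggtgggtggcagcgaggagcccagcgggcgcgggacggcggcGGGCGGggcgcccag
Lhx9, chr1:138842445-138842694, minus strand: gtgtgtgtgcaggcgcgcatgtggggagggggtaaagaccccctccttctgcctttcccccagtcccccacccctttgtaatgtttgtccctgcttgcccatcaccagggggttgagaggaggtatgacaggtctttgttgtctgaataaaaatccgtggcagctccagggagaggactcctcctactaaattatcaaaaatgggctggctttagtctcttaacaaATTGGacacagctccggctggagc
Lhx4, chr1:155742028-155742277, minus strand: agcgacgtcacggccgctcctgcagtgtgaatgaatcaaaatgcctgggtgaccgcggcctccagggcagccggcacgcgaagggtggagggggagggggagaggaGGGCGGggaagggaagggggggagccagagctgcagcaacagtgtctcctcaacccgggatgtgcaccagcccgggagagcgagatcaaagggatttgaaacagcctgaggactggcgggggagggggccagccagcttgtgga
The Lhx1 and Lhx2 windows held 26 and 25 CpG dinucleotides and the Lhx9 window 4, with 14 in that of Lhx4, where the median over 32817 promoters was 6. The Lhx2 window, at the first of its 2 listed starts, held 4 GC boxes and no CCAAT box, and the window at the other start held 24 CpG dinucleotides and neither box. Lhx1 and Lhx9 each held 1 CCAAT box and no GC box, and Lhx4 held 1 GC box. GC boxes stood in 32.7% and CCAAT boxes in 33.8% of all promoters. TAATTA, the core that many homeodomains bind, stood in none of the 13 windows and in 4.85% of all. CANNTG (the E-box of bHLH factors) stood in 66.2% of all and, among the windows shown, in that of Lhx9 alone, outside the capitals. TATAAA (the TATA box) stood in 12.4% of all and in none of the 4 shown. No matches to these 5 motifs overlapped each other in the 13 windows.

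**Figure D1:**
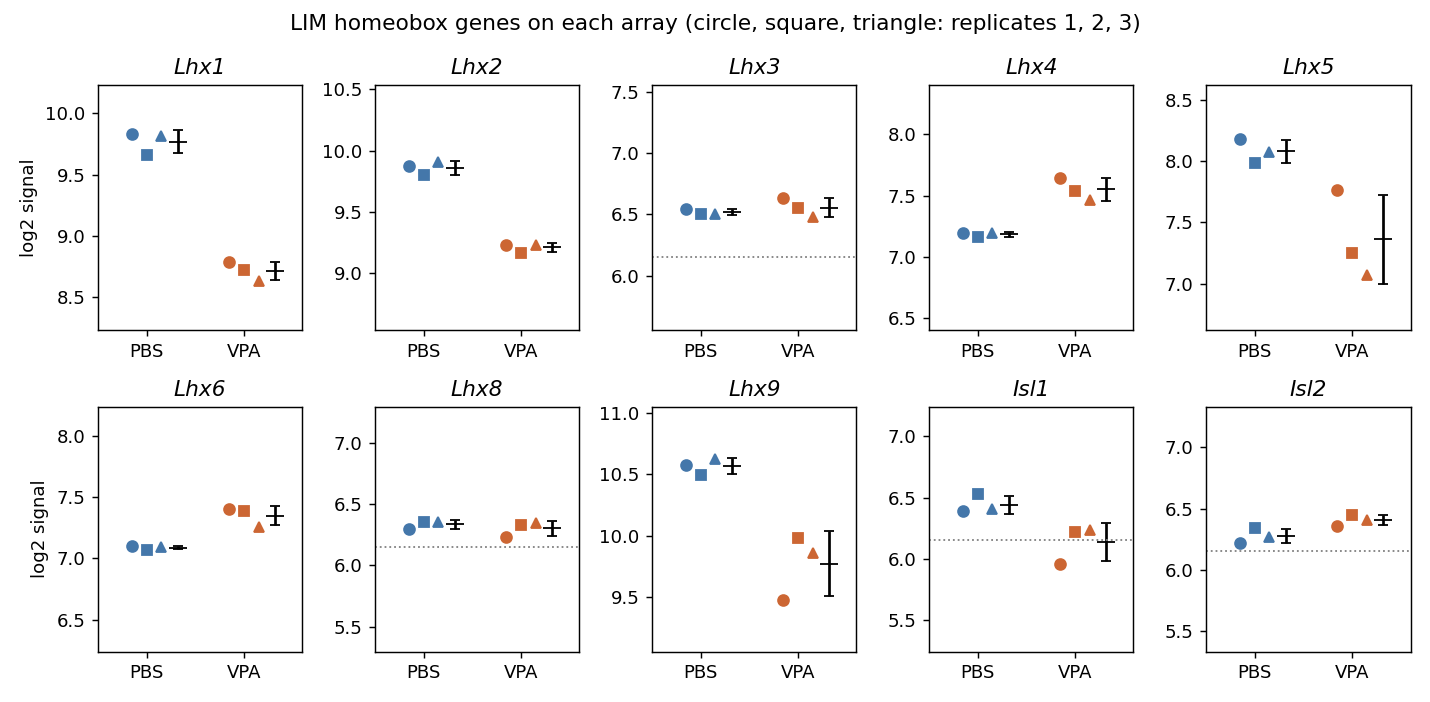
Log2 signal of each LIM homeobox gene on the 6 arrays, with PBS in blue and VPA in orange; bars show mean and SD (n = 3), every panel spans 2 log2 units, and the dotted line, drawn where it falls in range, is the background gauge of 6.15. The VPA arrays lie below all PBS arrays for Lhx1, Lhx2, Lhx5, Lhx9 and Isl1 and above them for Lhx4, Lhx6 and, narrowly, Isl2.

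Lhx1 and Lhx5 are paralogues of inhibitory interneurons of the spinal cord and brainstem, and of Purkinje cells. Lhx1 read 9.83, 9.66 and 9.81 on PBS replicates 1, 2 and 3 and 8.79, 8.72 and 8.63 on VPA replicates 1, 2 and 3. The lowest PBS array lay 0.88 above the highest VPA array. Lhx1 fell to 0.48 times its PBS signal, by 1.06 (SE 0.07, limma adjusted p = 1.26e-05), a change larger in size than those of 98.5% of all genes. Lhx5 read 8.18, 7.99 and 8.07 with PBS and 7.76, 7.25 and 7.07 with VPA. All VPA arrays were low, but VPA replicate 1 lay 0.60 above the mean of the other VPA arrays. Lhx5 fell by 0.72 (SE 0.15, limma adjusted p = 0.0076), and the change was -0.92 without that array.

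A list of genes of the interneurons in which Lhx1 and Lhx5 act had 13 measured genes, of which 5 fell and 4 rose (median -0.04, against 0.00 over all genes). The genes that fell included those of the transmitter. Both genes for GABA synthesis, Gad1 and Gad2, fell, with changes of -1.47 (SE 0.07) and -1.48 (SE 0.08). Slc32a1, which loads GABA into vesicles, En1, a homeobox gene of V1 interneurons, and Dmrt3 also fell. Foxd3, a forkhead gene of V1 interneurons and of the neural crest, rose by 0.98 (SE 0.10), and Pax8, a paired-box gene, by 0.80 (SE 0.13). Pax2 and Lbx1 rose too. The call of Dmrt3 was lost without PBS replicate 2 (limma adjusted p = 0.0951) or 3 (0.108) or VPA replicate 2 (0.0578) or 3 (0.0698). That of Pax2 was lost without PBS replicate 1 (limma adjusted p = 0.0729), 2 (0.0601) or 3 (0.055), and that of Lbx1 without PBS replicate 1 (0.0575) or 3 (0.0625). For this and the lists that follow, up to 4 called genes with the largest changes were named by rule, and any other gene named was chosen after its values were seen. In a list of V2 interneurons of the ventral spinal cord, whose GATA and Tal1 genes are also active in GABAergic neurons of the midbrain and diencephalon, 4 of 6 fell and 0 rose (median -0.74). Sox14 changed by -1.28 (SE 0.08), Gata3 by -1.02 (SE 0.13), Tal1 by -0.86 (SE 0.06) and Gata2 by -0.63 (SE 0.08). The 2 that did not pass were Vsx1 and Foxn4, at 0.18 and 0.03.

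Lhx2 and Lhx9 act in the forebrain, where Lhx2 directs the growth of the cortex and eye and both are active in the thalamus, and in dorsal commissural neurons of the spinal cord. Lhx2 read 9.87, 9.80 and 9.90 with PBS and 9.23, 9.17 and 9.23 with VPA. These were the tightest VPA readings of the 10 genes, with a range of 0.06 beside a gap of 0.57 between the groups. Lhx2 fell by 0.65 (SE 0.06, limma adjusted p = 6.19e-05). Lhx9 read 10.58, 10.49 and 10.63 with PBS and 9.48, 9.98 and 9.85 with VPA. Here VPA replicate 1 was the lowest array, 0.44 below the mean of the other VPA arrays, the opposite side from Lhx5. Lhx9 fell by 0.80 (SE 0.12, limma adjusted p = 0.00106), and the change was -0.65 without that array.

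Of 17 measured genes of the forebrain, cortical hem and eye field, 8 fell and 1 rose (median -0.05). Rspo2 and Wnt8b changed most. Rspo2, a secreted enhancer of Wnt signalling, changed by -2.46 (SE 0.18), and Wnt8b, a Wnt ligand, had a measured difference of -2.13 (SE 0.10). Fezf2, a gene of deep-layer cortical neurons, changed by -1.25 (SE 0.09) and Otx2, a homeobox gene of the anterior brain, by -1.24 (SE 0.11). The other Wnt ligand genes on the list, Wnt3a and Wnt2b, differed by -0.05 and 0.02 and did not pass. Wnt3a read 6.91 with PBS and 6.86 with VPA. Wnt2b read 6.40 and 6.42, close to the background gauge, which limits what its difference can show. The gene that rose was Pax6, a paired-box gene of cortical progenitors and the eye. Of the 11 genes of the thalamus and habenula, 5 fell and 2 rose (median -0.28, and -0.41 without VPA replicate 1). Slc17a6, a vesicular glutamate transporter gene, changed by -1.02 (SE 0.11), the Wnt effector genes Lef1 and Tcf7l2 by -0.95 (SE 0.08) and -0.90 (SE 0.06), and the nuclear receptor gene Rora by -0.74 (SE 0.06). Foxp2 fell as well, and Gbx2 and Nr4a2 rose.

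Genes of dorsal spinal and sensory neurons divided, with 3 of 10 lower and 4 higher (median 0.10). Barhl2, a homeobox gene of dI1 neurons and the diencephalon, changed by -1.14 (SE 0.06), and Barhl1 fell too, as did Slc17a6. Robo3, a receptor of commissural axons, rose by 0.75 (SE 0.16) and Tlx3, a homeobox gene of excitatory dorsal neurons, by 0.74 (SE 0.17); Neurog1 and Prrxl1 also rose. The call of Tlx3 was lost without PBS replicate 1 (limma adjusted p = 0.0553) and that of Neurog1 without PBS replicate 1 (0.0723), 2 (0.0524) or 3 (0.0695). Cajal-Retzius neurons are early neurons of the cortical surface, many of them born in the hem. Of 8 genes on their list, 2 fell and 3 rose (median 0.11). Eomes, a T-box gene, changed by -1.95 (SE 0.09) and Reln, which encodes reelin, by -0.83 (SE 0.07), while Cxcr4 rose by 0.48 (SE 0.07), Nhlh2 by 0.34 (SE 0.06) and Ebf3 by 0.23 (SE 0.06). The call of Ebf3 was lost without PBS replicate 1 (limma adjusted p = 0.0775) or 3 (0.0944) or VPA replicate 2 (0.0525).

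Lhx3 and Lhx4 specify motor neurons and V2 interneurons and are needed for the pituitary. Lhx3 read 6.54, 6.50 and 6.50 with PBS and 6.64, 6.55 and 6.48 with VPA, and the groups overlapped. Its difference was 0.04 (SE 0.06, limma adjusted p = 0.691), with a 95% interval from -0.10 to 0.17. Lhx4 read 7.20, 7.16 and 7.19 with PBS and 7.65, 7.54 and 7.46 with VPA. All VPA arrays were higher, by at least 0.27. Lhx4 rose by 0.37 (SE 0.06, limma adjusted p = 0.00239), the largest rise among the 10 genes. The V2 interneuron list given above went the other way, with 4 of 6 genes lower and 0 higher (median -0.74). On the pituitary list 0 of 6 measured genes passed in limma's fit, and 0 had an unadjusted p under 0.05. Without VPA replicate 1, 1 of the 6 passed, Tshb (0.21, limma adjusted p = 0.0309), a gene below the background gauge in both groups. The 2 with the smallest p among those above the gauge, Pitx1 and Gh, differed by -0.05 and 0.04. Of the 6 genes, 3 (Cga, Prl and Tshb) lay below the gauge in both groups. The others lay close to it: Pitx1 read 6.38 with PBS and 6.32 with VPA, Gh 6.34 and 6.37, and Pomc 6.26 and 6.27. So near to background, the list cannot show whether pituitary genes changed.

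Of 17 measured genes of the motor neuron programme 10 rose and 1 fell (median 0.33, and 0.24 without VPA replicate 1, where 11 rose). The gene that fell was Olig2, which marks the progenitors of motor neurons and oligodendrocytes, at -0.85 (SE 0.14). Aldh1a2, which makes retinoic acid, rose with a measured difference of 0.95 (SE 0.10), Nkx2-2, a homeobox gene of the ventral neural tube, with one of 0.80 (SE 0.21), and Gfra1, a receptor for the growth factor GDNF, by 0.72 (SE 0.08). The call of Nkx2-2 was lost without PBS replicate 1 (limma adjusted p = 0.0697) or 3 (0.0734). Ret, a co-receptor of Gfra1, rose by 0.66 (SE 0.09), Slc18a3, which loads acetylcholine into vesicles, by 0.61 (SE 0.13), Phox2a by 0.43 (SE 0.07), Nkx6-1 by 0.32 (SE 0.09) and Neurog2 by 0.32 (SE 0.08). The call of Nkx6-1 was lost without PBS replicate 1 (limma adjusted p = 0.0909) or 3 (0.0899), and that of Neurog2 without PBS replicate 2 (0.0692) or 3 (0.051). The last of the 10 that rose, Tbx20 and Slc5a7, read below the background gauge in both groups. The call of Slc5a7 was lost without PBS replicate 1 (limma adjusted p = 0.0716) or 3 (0.0894) or VPA replicate 2 (0.0757) or 3 (0.0717). Mnx1 (5.13 with PBS, 5.34 with VPA) and Chat (5.59 and 5.75), which makes acetylcholine, also lay below the gauge in both groups and did not pass.

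Lhx6 and Lhx8 are genes of the medial ganglionic eminence, the ventral forebrain source of cortical interneurons, where Lhx8 also directs cholinergic neurons. Lhx6 read 7.10, 7.07 and 7.10 with PBS and 7.41, 7.38 and 7.26 with VPA. The PBS arrays spanned 0.03 and all VPA arrays were higher. Lhx6 rose by 0.26 (SE 0.06, limma adjusted p = 0.0108). Leaving out PBS replicate 2 ended this call (0.0513). Lhx8 read 6.29, 6.35 and 6.36 with PBS and 6.24, 6.33 and 6.35 with VPA, and the groups overlapped. Its difference was -0.03 (SE 0.06, limma adjusted p = 0.749), with a 95% interval from -0.16 to 0.10.

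Of 13 measured genes of these interneurons 7 rose and 1 fell (median 0.20). Npy, which encodes neuropeptide Y, rose by 1.67 (SE 0.08), the homeobox genes Dlx1 and Dlx2 by 1.41 (SE 0.08) and 0.82 (SE 0.10), and Maf, a transcription factor gene of cortical interneurons, by 0.50 (SE 0.11). Dlx5, Zeb2 and Satb1 rose too. The call of Satb1 was lost without PBS replicate 1 (limma adjusted p = 0.0895), 2 (0.135) or 3 (0.0721) or VPA replicate 2 (0.0928). Sox6 fell, a call lost without PBS replicate 1 (limma adjusted p = 0.0866) or 2 (0.0538) or VPA replicate 3 (0.0762). Of the 5 that did not pass, Sst read 10.07 with PBS and 9.86 with VPA. Nkx2-1, which acts upstream of Lhx6 in the eminence, read 6.30 with PBS and 6.29 with VPA, close to the gauge.

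Isl1 and Isl2 are genes of motor and sensory neurons, and Isl1 also acts in the second heart field and the endocrine pancreas. Isl1 read 6.39, 6.53 and 6.41 with PBS and 5.96, 6.22 and 6.23 with VPA. The VPA arrays were all lower, and VPA replicate 1 was the lowest. The VPA mean of Isl1 lay below the background gauge, as did the VPA mean of Wnt8b and the PBS means of Aldh1a2, Nkx2-2, Fgf10 and Neurog3. Isl1 fell, with a measured difference of -0.31 (SE 0.08, limma adjusted p = 0.0235). The call was lost without PBS replicate 1 (0.0559), 2 (0.0964) or 3 (0.0584). Isl2 read 6.22, 6.34 and 6.27 with PBS and 6.36, 6.45 and 6.41 with VPA. The groups were apart by 0.02. The difference of 0.13 (SE 0.06) did not pass (limma adjusted p = 0.137), with a 95% interval from -0.00415 to 0.26.

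Markers of the other tissues in which the genes act were measured beside them. On the heart list 6 of 14 rose and 0 fell (median 0.19, and 8 rose without VPA replicate 1). Actc1, cardiac alpha-actin, rose by 2.93 (SE 0.18), Tnnt2, cardiac troponin T, by 0.89 (SE 0.10) and Gata6 by 0.53 (SE 0.06); Fgf10, a growth factor gene of the second heart field, had a measured difference of 0.83 (SE 0.11). Nkx2-5, a defining cardiac factor, differed by 0.02 and did not pass, and Myh6 and Tbx5 lay below the gauge in both groups. Of 10 genes of intermediate mesoderm and kidney, where Lhx1 acts, 4 rose and 1 fell (median 0.13, and 0.08 without VPA replicate 1). Osr1 rose by 2.29 (SE 0.07) and Sall1 by 1.11 (SE 0.13). Pax8, Pax2 and Gata3 are described above. On the gonad and limb list, which fits Lhx2 and Lhx9, 4 of 10 rose and 1 fell (median 0.09). Prrx1, Twist1 and Prrx2, genes of limb and craniofacial mesenchyme, rose by 1.90 (SE 0.07), 1.12 (SE 0.07) and 0.56 (SE 0.08), Meox1 rose below the gauge, and Emx2 changed by -0.71 (SE 0.09). The call of Meox1 was lost without PBS replicate 1 (limma adjusted p = 0.117), 2 (0.114) or 3 (0.0856) or VPA replicate 2 (0.0556) or 3 (0.101). On the pancreas list 3 of 9 rose and 1 fell (median 0.07). Gcg, the glucagon gene, rose by 0.95 (SE 0.08), Neurog3 with a measured difference of 0.44 (SE 0.11), and Nkx6-1 as given for motor neurons, while Neurod1 changed by -0.62 (SE 0.07). The call of Neurog3 was lost without PBS replicate 2 (limma adjusted p = 0.0612) or 3 (0.0754). Over these programme lists together, 45 of 131 distinct genes rose and 28 fell. Over all genes 13.6% rose and 15.7% fell, and no list was tested against these shares.

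**Figure D2:**
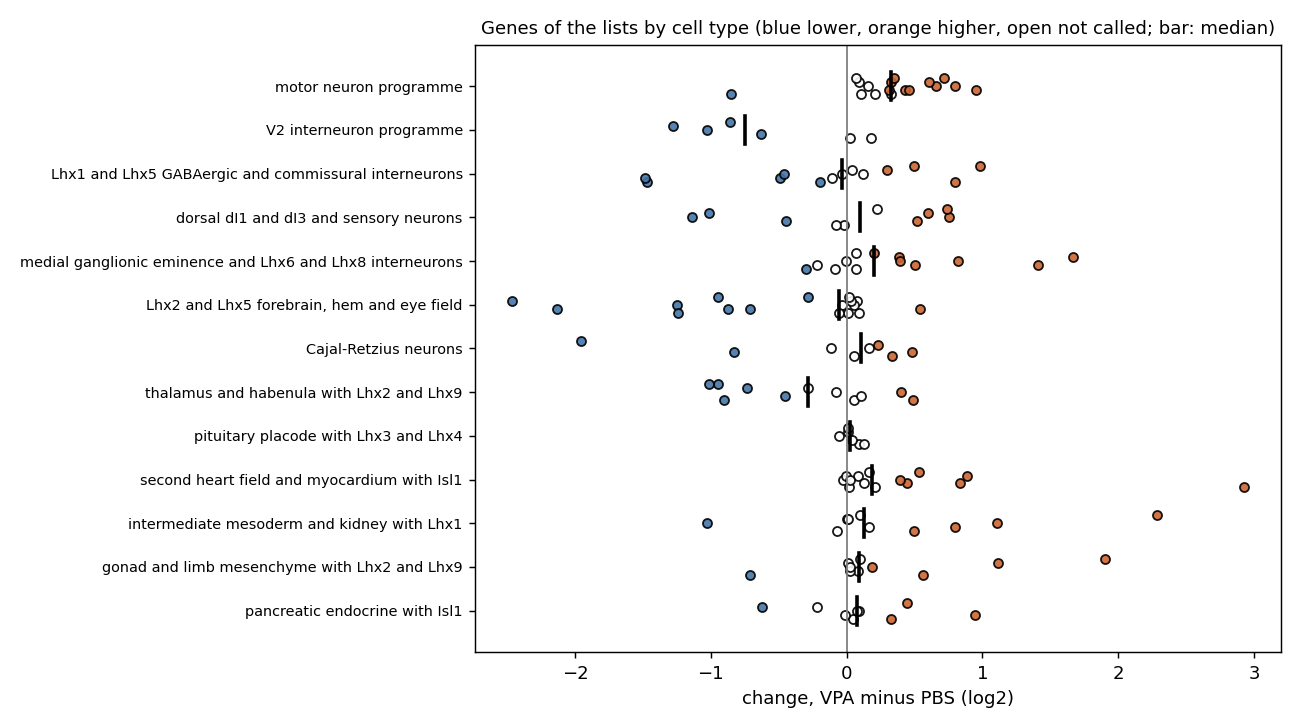
Change from PBS to VPA (log2) of each measured gene on the lists of cell types in which LIM homeobox genes act, 1 row a list, with genes that passed in orange (higher) or blue (lower), others open, and the list median as a bar. The V2 interneuron median lies at -0.74 and the motor neuron median at 0.33, while the other medians lie between -0.28 and 0.20.

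Of the 10 measured cofactor and Lmo genes, 1 rose and 2 fell, a share near the 29.2% of all genes that passed. The 3 were Lmo genes; whether the Lmo and the cofactor genes differ was not tested. Lmo1 read 9.52, 9.50 and 9.67 with PBS and 8.50, 8.47 and 8.43 with VPA. It fell by 1.10 (SE 0.06, limma adjusted p = 7.26e-06), and all VPA arrays lay within 0.07 of each other. Lmo3 read 10.19, 10.24 and 10.19 with PBS and 9.71, 9.80 and 9.87 with VPA, with no overlap, and fell by 0.41 (SE 0.06, limma adjusted p = 0.00106). Lmo4 read 10.01, 10.03 and 10.04 with PBS and 10.45, 10.29 and 10.35 with VPA. All VPA arrays were higher, and Lmo4 rose by 0.34 (SE 0.06, limma adjusted p = 0.0029). Lmo2 differed by 0.14 (SE 0.06) and did not pass.

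Ldb1, the main scaffold of LIM complexes, read 11.61 ± 0.04 with PBS and 11.60 ± 0.12 with VPA (SD, n = 3), a difference of -0.01 with a 95% interval from -0.17 to 0.16. Ldb2 differed by 0.12 (SE 0.06). Ssbp2, Ssbp3 and Ssbp4, which encode proteins that protect Ldb1 from degradation, differed by -0.13 (SE 0.08), -0.03 (SE 0.06) and 0.14 (SE 0.09). Rlim, which encodes a ubiquitin ligase that targets the Ldb proteins, differed by 0.08 (SE 0.06). None of these 6 passed. Of the other LIM homeobox genes of the mouse, Lmx1b, a gene of dopaminergic, serotonergic and dorsal spinal neurons, read 8.54, 8.70 and 8.60 with PBS and 9.17, 8.97 and 8.93 with VPA. All VPA arrays were higher, and Lmx1b rose by 0.41 (SE 0.08, limma adjusted p = 0.00451). Lmx1a was not analysed here.

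**Figure D3:**
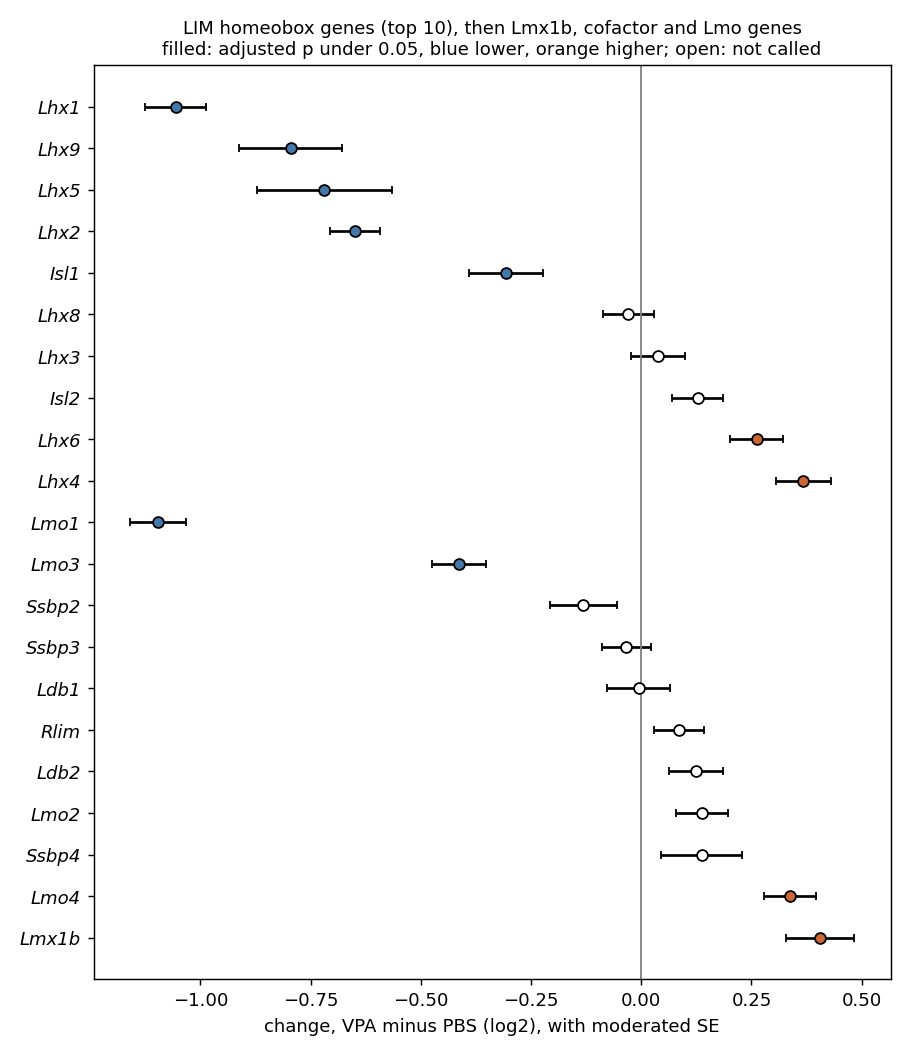
Change from PBS to VPA (log2) with its moderated SE for the 10 LIM homeobox genes in order of change, followed by the cofactor and Lmo genes and Lmx1b. Filled points passed at an adjusted p under 0.05; Lhx1 at -1.06 and Lmo1 at -1.10 are the lowest, and Lhx4 at 0.37 and Lmx1b at 0.41 the highest.

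Whether paralogues changed alike was examined from the difference between both genes on the same array, for 5 pairs. For these differences SE is the ordinary pooled standard error over the arrays, not limma's moderated one. With 3 arrays against 3 an exact two-sided permutation test cannot give a p below 0.1, so no pair could pass. Lhx2 minus Lhx9 changed by 0.15 (SE 0.17, 95% interval from -0.32 to 0.61, exact permutation p = 0.7, adjusted 0.7). Relative to the PBS mean it was 0.46, -0.11 and 0.08 on VPA replicates 1, 2 and 3, so the VPA arrays lay on both sides, and without VPA replicate 1 the difference was -0.01. Lhx1 minus Lhx5 changed by -0.34 (SE 0.17, 95% interval from -0.81 to 0.13, exact permutation p = 0.1, adjusted 0.125). Its VPA values were -0.67, -0.22 and -0.12, all below the PBS arrays, and the difference was -0.17 without VPA replicate 1. For both pairs the interval included 0.

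The other 3 pairs had intervals that left out 0. These intervals use the spread of 3 arrays per group and were not adjusted over the 5 pairs, so none counts as a pass. Lhx3 minus Lhx4 changed by -0.33 (SE 0.01, 95% interval from -0.36 to -0.29), with VPA values of -0.34, -0.32 and -0.32, the tightest of the 5 pairs. This small SE rests on 3 arrays per group, where each gene alone had a moderated SE of 0.06, so it may overstate the precision. Isl1 minus Isl2 changed by -0.43 (SE 0.07, 95% interval from -0.63 to -0.24), with VPA values of -0.57, -0.39 and -0.34. Lhx6 minus Lhx8 changed by 0.29 (SE 0.08, 95% interval from 0.07 to 0.51), with VPA values of 0.42, 0.30 and 0.16. Each had an exact permutation p of 0.1, the smallest this design allows (adjusted 0.125). In each of these pairs at least 1 gene had a PBS mean within 0.36 of the background gauge.

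**Figure D4:**
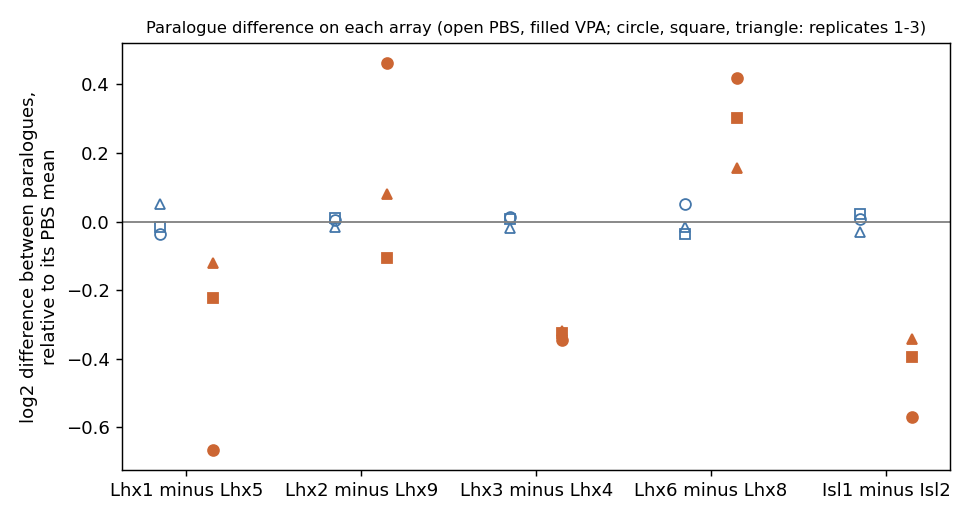
Difference in log2 signal between both genes of each paralogue pair on every array, relative to the mean of that difference over the PBS arrays (open, PBS; filled, VPA). The VPA arrays lie to 1 side of the PBS arrays for 4 pairs and on both sides for Lhx2 minus Lhx9, where VPA replicate 1 is at 0.46.

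Leaving out each array in turn kept the calls of Lhx1, Lhx2, Lhx4, Lhx5 and Lhx9 in 6 of 6 fits. Lhx1 stayed within -1.11 and -1.02 and Lhx2 within -0.68 and -0.63, whereas Lhx5 ran from -0.92 to -0.57 and Lhx9 from -0.90 to -0.65. For both of the wider ranges an end was set by the fit without VPA replicate 1. Lhx4 stayed within 0.32 and 0.41. Lhx6 was called in 5 of 6 and Isl1 in 3 of 6, the latter with changes from -0.36 to -0.22. Lhx3, Lhx8 and Isl2 passed in none of these fits.

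**Figure D5:**
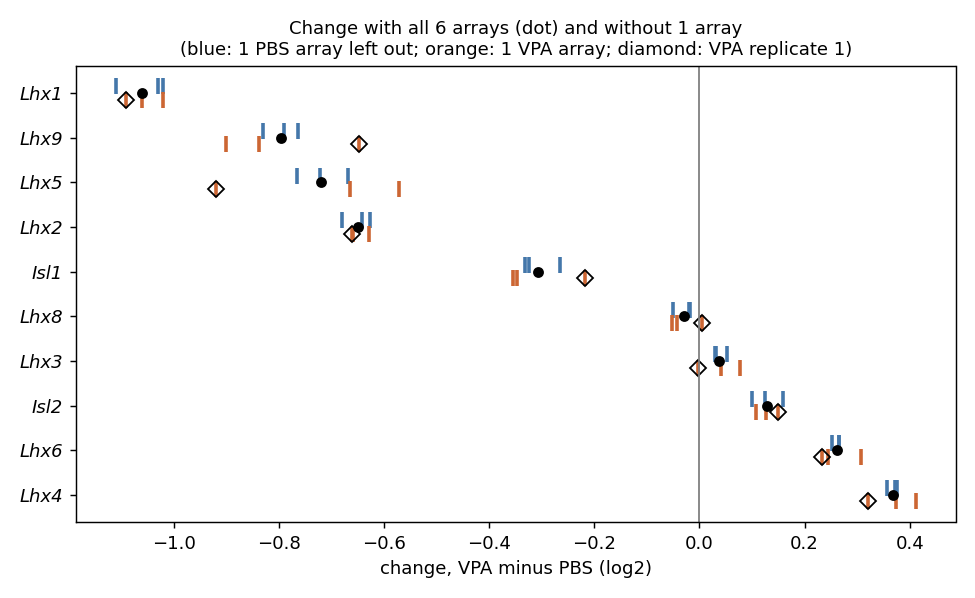
Change from PBS to VPA (log2) of each LIM homeobox gene with all 6 arrays (dot) and with 1 array left out (ticks, blue for a PBS array and orange for a VPA array; the diamond is the fit without VPA replicate 1). Lhx5 and Lhx9 move furthest without VPA replicate 1, to -0.92 and -0.65.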

How the data were processed

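The authors deposited log2 signals for 35556 probe sets on 6 arrays. The base is inferred: values ran from 2.50 to 13.89, and the medians of the arrays, 6.99 to 7.03, were nearly equal, as after normalization between arrays. The submitters' processing notes name Partek 6.5 and build mm9 without a role. How signals were corrected, summarized and normalized is not given in the sources used here. The number of arrays limits the precision.

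By GEO's platform annotation 21789 probe sets had 1 gene symbol, 1621 had several and 12146 had none. Entrez IDs served to update 21698 symbols. Each gene took its brightest probe set. VPA was compared with PBS by limma 3.58.1 in R 4.3.3 (lmFit, eBayes, no covariates, no filter) over 19938 genes. In simulated arrays with 200 genes changed, this fit recovered 20% of changes of 0.25, 66% of 0.5, 98% of 1 and 100% of 2, and 3.40% of its calls were false; far more genes passed in the data, so these shares do not give its recovery there.

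The members and gene lists were chosen with earlier results of these data known. Named are all members, Lmx1b, all cofactor and Lmo genes, and per list up to 4 called genes with the largest change (the 2 with the smallest p where none was called), leaving out genes below the gauge in both groups; Tubb3, Map2 and Dcx were named in any case. Every other gene in the text was named after its values were seen, including uncalled genes and genes below the gauge. Alternatives were quantile normalization, median centring, filters on dim genes, other variance and array weights, a replicate block, other handling of probe sets, other thresholds and leaving out each array. Sequences are from RefSeq, of another build than the array notes; the 50 bases after each start are not printed.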

Additional observations from a re-analysis of the deposited data

How the results depend on the processing

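Over the alternatives run, Lhx1, Lhx2, Lhx5 and Lhx9 fell in every fit at an adjusted p under 0.05, and Lhx4 rose in every fit that kept it. With 1 probe set per LIM homeobox gene, the filters, other variance, replicate block and handling of probe sets could not move the change itself. In those fits only the p-values could differ. Near-zero differences changed sign without VPA replicate 1, Lhx3 to -0.00258 and Lhx8 to 0.00525; leaving out each array ran from there to 0.0764 for Lhx3 and to -0.052 for Lhx8. Isl2 passed with array weights (0.15, limma adjusted p = 0.0398). Filtering out genes under the 50th percentile of level kept 4 of the 10 genes, so that 0 rose and 4 fell, with 28 programme genes higher and 1520 genes higher in all; filters at the 30th percentile and the gauge kept all 10. At an adjusted p under 0.01, 1 LIM homeobox gene was higher and 4 lower, with 1579 genes higher and 1791 lower in all. Array weights gave 4342 genes higher. With quantile normalization 54.1% of calls were higher, against 46.4%, and Lhx3 minus Lhx4 was -0.35.

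Leaving out 1 array gave 1 to 2 LIM homeobox genes higher and 4 to 5 lower, 1 cofactor or Lmo gene higher and 2 lower, 35 to 49 programme genes higher and 26 to 30 lower, and 1778 to 3949 genes higher and 2058 to 4224 lower in all; 1 higher LIM homeobox gene and the lowest totals came without PBS replicate 2. Lhx2 minus Lhx9 ran from -0.0129, without VPA replicate 1, to 0.272. With the replicate number as a block 2 LIM homeobox genes were higher and 5 lower, as without it, and 2592 genes were higher and 2818 lower in all. Same-numbered arrays did not deviate together (r = -0.02, -0.01 and 0.02). These values rest on deviations within few arrays per group, so they cannot decide whether the numbers pair the arrays. A check added after seeing the data took the 95 genes on the lists outside the 10 that were called with all arrays. The alternatives gave 1483 values for them, 1423 in the same direction and called, 60 in the same direction and not called, and 0 reversed. These genes were picked by their calls on the same arrays, and many alternatives leave the change itself as it was. The counts are therefore no independent support for the calls. The replicate block ended the calls of Dmrt3 (limma adjusted p = 0.0581), Meox1 (0.0618) and Satb1 (0.0648). Lhx3, Lhx8, Isl1 and Isl2 lay close to the background gauge, which limits what their values can show.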
